A study of Mus musculus with 4 samples.

Results

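The 9 platelet granule and coagulation genes Pf4, Ppbp, Vwf, Thbs1, Mmrn1, F13a1, Serpine2, Cavin2 and Rab27b were followed in single bone marrow cells of 2 mice. They were chosen by gene symbol, with earlier results of these data known, and all 9 were found among the 32285 genes of both count matrices. The cells came from male Tppp3CreER LSLTdTomato mice, which express a Cre that tamoxifen activates from Tppp3, together with a tdTomato reporter that Cre switches on. Tamoxifen was given on postnatal days 0 and 3, and marrow was taken at 3 months of age, so that tdTomato marks cells in which Cre was active in the newborn, and their progeny. Every mouse had this genotype and treatment, and no untreated or Cre-free animal was analysed here. After enrichment with Kit beads, Lin-Sca+Kit+ cells (without lineage markers, with Sca-1 and Kit) were sorted, a compartment that the submitters call HSCs (haematopoietic stem cells) and that also holds multipotent progenitors. The 4 tubes were tdTomato-positive cells of mouse 1, tdTomato-negative cells of mouse 1, and likewise for mouse 2. Hashtag antibodies marked the tubes, and 10x Genomics libraries were made from part of each tube with GEM-X and from the rest with v3.1, giving a gene expression and a hashtag library for each chemistry. With 2 mice the smallest exact p of a paired permutation test is 0.5, so the p-values below come from models fitted across all genes and measure the spread between these tubes.

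Platelets carry granules that megakaryocytes fill with chemokines, adhesive proteins and clotting factors and that are released when a vessel is injured. Some stem cells, called platelet-biased, already transcribe such genes, and Vwf is the best known of them in the mouse. The series concerns when such stem cells arise in life. Its gates compare cells with and without tdTomato, which marks Cre activity driven from Tppp3 in the newborn. The efficiency of this labelling was not measured here, so a tdTomato-negative cell may also have expressed Tppp3.

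After filtering, 32330 cells carried exactly 1 hashtag: 3867 tdTomato-positive and 12144 tdTomato-negative cells of mouse 1, and 3933 tdTomato-positive and 12386 tdTomato-negative cells of mouse 2. The GEM-X library held 234563105 unique molecular identifiers (UMIs, the tags that count captured mRNA molecules) over genes and the v3.1 library 178214937, and the median cell held 6650 to 10028 UMIs by tube and chemistry. No cell barcode was shared between the 2 matrices. Marker lists, which held neither Kit nor Sca-1, described the sorted cells. The 14 HSC markers summed to 1774 to 2246 CPM (UMIs of a gene scaled to 1000000 UMIs of the tube or class) by tube, while 11 endothelial and stromal markers summed to 2.90 to 3.87 CPM. Markers of other lineages were present too, at 1463 to 3284 CPM for granulocyte-monocyte progenitors and 598 to 931 CPM for erythroid cells. Neutrophil markers summed to 111 to 192 CPM and B cell markers to 80.9 to 143 CPM. Clusters were named from marker lists that hold none of the 9 genes, and the clustering left out the 9 genes and the genes called between the gates. The megakaryocyte-platelet-like class held 1553 cells (4.80% of all), with 7 of its 9 detected markers raised, and the HSC-like class held 2078 cells (6.43%), with 14 of 14 raised. The other named classes were lymphoid progenitor-like (4100 cells), neutrophil-like (561 cells, led also by Elane, Ms4a3 and Ly6c2, genes of granulocyte precursors), erythroid-like (208 cells), B cell-like (194 cells) and T and NK cell-like (81 cells). The remaining 23555 cells stayed unnamed, among them a cluster of 4332 cells with 13 of 14 HSC markers raised that immunoglobulin genes led.

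The stretches of 250 bases before the RefSeq transcription start are shown for 4 genes with different distributions: the neighbouring chemokine genes Pf4 and Ppbp, then Cavin2, whose UMIs lay mostly in the same class as those of Pf4, and F13a1, whose UMIs lay mostly in another. All are from GRCm38.p6 and read 5′ to 3′ on the strand of the gene, and capitals mark a match, on either strand, to short words that GATA or ETS factors are known to bind. The GATA words searched were AGATAA, the variant with another first base TGATAA, the variant with another last base AGATAG and the variant with both, TGATAG. The ETS words searched were AGGAAG and, as a second form, CGGAAG. No matches overlapped.
Pf4, chr5:90772185-90772434, plus strand: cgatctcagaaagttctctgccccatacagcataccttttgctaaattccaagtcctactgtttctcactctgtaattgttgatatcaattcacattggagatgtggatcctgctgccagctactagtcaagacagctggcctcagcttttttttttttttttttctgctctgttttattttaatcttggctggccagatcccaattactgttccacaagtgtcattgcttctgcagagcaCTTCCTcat
Ppbp, chr5:90768268-90768517, plus strand: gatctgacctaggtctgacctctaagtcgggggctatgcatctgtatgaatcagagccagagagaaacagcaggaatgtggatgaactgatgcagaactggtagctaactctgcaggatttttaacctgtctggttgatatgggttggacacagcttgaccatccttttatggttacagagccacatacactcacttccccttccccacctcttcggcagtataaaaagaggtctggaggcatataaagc
Cavin2, chr1:51288876-51289125, plus strand: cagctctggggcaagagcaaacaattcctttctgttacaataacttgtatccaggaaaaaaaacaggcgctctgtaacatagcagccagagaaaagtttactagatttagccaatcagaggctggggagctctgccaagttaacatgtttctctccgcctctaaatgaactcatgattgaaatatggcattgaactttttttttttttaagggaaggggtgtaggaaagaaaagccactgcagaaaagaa
F13a1, first of its RefSeq starts, chr13:37050245-37050494, minus strand: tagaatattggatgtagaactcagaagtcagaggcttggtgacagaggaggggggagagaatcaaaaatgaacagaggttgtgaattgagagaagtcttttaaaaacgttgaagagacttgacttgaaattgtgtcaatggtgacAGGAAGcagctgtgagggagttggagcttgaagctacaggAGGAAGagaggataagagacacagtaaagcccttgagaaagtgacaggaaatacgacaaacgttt
Pf4 had 1 ETS word, AGGAAG on the minus strand, 9 bases before the start, and this F13a1 window had the same word 2 times on its own strand, 105 and 65 bases before the start. The windows of Ppbp and Cavin2 held no word of either kind, and none of the 4 held a GATA word. Of the windows not shown, that of Mmrn1 (chr6:60944067-60944316) held the GATA word TGATAA, 34 bases before that RefSeq start. Those of Serpine2 and of another F13a1 start each held the ETS word AGGAAG. Each window not shown lies inside the span given below for its gene, downstream of the 5′ end of that span. Whether it is a promoter in these cells was not tested. Of 32851 RefSeq windows of the same length, 26.5% held a GATA word and 39.2% an ETS word, so that a match in any window is common.

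The chemokine cargo was described first. Pf4, platelet factor 4 (chr5:90772435-90773383 on mm10, plus strand), encodes a chemokine stored in alpha granules. In megakaryocyte-platelet-like cells Pf4 stood at 378 to 1030.4 CPM over the 4 tubes, against 27.7 to 34.9 CPM in HSC-like cells, so the ranges did not overlap. This class, 4.80% of the cells, held 74.9% of the 11865 Pf4 UMIs. Pf4 was at 1.51 CPM in neutrophil-like, 2.08 CPM in lymphoid progenitor-like and 1.07 CPM in B cell-like cells. It was at 7.44 CPM in T and NK cell-like cells, from 7 UMIs, and at 23.6 CPM in the unnamed cluster with raised HSC markers, from 733 UMIs. After each cell was thinned to 3000 UMIs, 24.8% of megakaryocyte-platelet-like cells (95% exact Clopper-Pearson interval 22.6 to 27.0%) and 7.84% of HSC-like cells (6.71 to 9.10%) had a Pf4 UMI. The share was 0.44% (0.011 to 2.43%) in the pooled B cell-like and T and NK cell-like cells, which should lack Pf4. These intervals, and the limits given for counts of 0, cover counting error only. Before thinning these shares were 45.3%, 13.3% and 2.18%, at median depths of 10470, 6488 and 8778 UMIs per cell. The Pf4 share in HSC-like cells thus lay above that in the lymphocyte-like cells at matched depth.

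Ppbp (chr5:90768518-90770063, plus strand), another alpha-granule chemokine, ends 2371 bases before Pf4 starts on the same strand. Only 208 Ppbp UMIs were counted in all cells, 62 of them in megakaryocyte-platelet-like cells (3.59 CPM) and 19 in HSC-like cells (1.36 CPM). Unnamed cells held 120 (0.529 CPM), among them 49 in the cluster with raised HSC markers (1.58 CPM). No Ppbp UMI was found in B cell-like or T and NK cell-like cells, which allows up to 1.07 CPM (3 counts over both classes). Ppbp therefore gives little power to any comparison below.

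Among the adhesive and clotting proteins, Vwf (chr6:125546774-125686679, plus strand), which encodes von Willebrand factor, the protein that tethers platelets and carries factor VIII, was at 28.3 CPM in megakaryocyte-platelet-like cells and 26.9 CPM in HSC-like cells. Over the 4 tubes Vwf ranged from 22.6 to 46.0 CPM in megakaryocyte-platelet-like cells and from 23.4 to 33.0 CPM in HSC-like cells, so the classes did not differ beyond their spread. At matched depth 4.98% of megakaryocyte-platelet-like and 6.76% of HSC-like cells had a Vwf UMI, and 0 of 227 B cell-like and T and NK cell-like cells had one, which allows a share of cells with a UMI of up to 1.32% (3 counts of the total; the exact upper limit is 1.61%). The megakaryocyte-platelet-like and HSC-like classes held 28.5% and 21.9% of the 1718 Vwf UMIs, and the unnamed cells, 72.9% of all cells, held 45.1%. Vwf was also at 7.06 CPM in erythroid-like cells, from 43 UMIs, and at 7.78 CPM in the unnamed cluster with raised HSC markers.

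Mmrn1 (chr6:60924976-60989378, plus strand) encodes multimerin 1, a large alpha-granule protein that binds factor V. Between the megakaryocyte-platelet-like and HSC-like classes its order was the reverse of that of Pf4. Mmrn1 was at 56.7 to 68.6 CPM in megakaryocyte-platelet-like cells and 191 to 217 CPM in HSC-like cells over the 4 tubes. Over 18 clusters, however, Mmrn1 and Pf4 were positively correlated (Pearson r = 0.606). HSC-like cells held 21.6% of the Mmrn1 UMIs and megakaryocyte-platelet-like cells 8.04%, while the unnamed cells, 72.9% of all cells, held 64.3%. At matched depth 14.3% of megakaryocyte-platelet-like and 41.1% of HSC-like cells had a Mmrn1 UMI. The unnamed cluster with raised HSC markers came second, at 92.5 CPM. Mmrn1 was also at 49.8 CPM in B cell-like cells, from 93 UMIs, and at 1.28 CPM in neutrophil-like cells.

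Thbs1 (chr2:118111876-118127133, plus strand), which encodes thrombospondin 1, an alpha-granule adhesive glycoprotein, gave 34 UMIs in all cells. Of these, 10 lay in megakaryocyte-platelet-like, 6 in HSC-like, 1 in lymphoid progenitor-like and 17 in unnamed cells. Its counts were too low for a test of the gates.

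F13a1 (chr13:36867178-37050244, minus strand) encodes the A subunit of factor XIII, which cross-links fibrin and is carried by platelets as well as by monocytes and macrophages. In these cells F13a1 was at 0.637 CPM in megakaryocyte-platelet-like cells and 0.214 CPM in HSC-like cells, while neutrophil-like cells held it at 178 CPM (146 to 235 CPM over the tubes). Neutrophil-like cells, 1.74% of all cells, carried 77.6% of the F13a1 UMIs. F13a1 was also at 22.0 CPM in B cell-like cells, from 41 UMIs, and at 13.8 CPM in T and NK cell-like cells, from 13 UMIs. F13a1 overlaps antisense and other gene models in GENCODE M21, as do Thbs1, Cavin2 and Rab27b, and the sources used here do not give whether reads were counted by strand, so their values are uncertain to that extent.

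Serpine2 (chr1:79794197-79861180, minus strand) encodes protease nexin 1, an inhibitor of thrombin that platelets store. It was shared by cell classes: 16.2 CPM in megakaryocyte-platelet-like cells and 1.57 CPM in HSC-like cells, 29.5 CPM in neutrophil-like cells, and 82.9 CPM in T and NK cell-like cells, from 78 UMIs. Neutrophil-like cells held 40.1% of the Serpine2 UMIs, and megakaryocyte-platelet-like cells held 28.7%.

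The last genes act in membranes and release. Cavin2 (chr1:51289126-51302960, plus strand), a coat protein of caveolae, was at 73.8 to 113 CPM in megakaryocyte-platelet-like cells and 21.8 to 36.1 CPM in HSC-like cells over the 4 tubes. The megakaryocyte-platelet-like class held 66.7% of the Cavin2 UMIs and the HSC-like class 18.9%, so these 2 classes carried most of them. Rab27b (chr18:69979131-70141605, minus strand), a small GTPase needed for the secretion of platelet dense granules, was more widely spread. It was at 92.7 to 126 CPM in megakaryocyte-platelet-like and 46.4 to 51.0 CPM in HSC-like cells, and unnamed cells held 63.7% of its UMIs. At matched depth 20.3% of megakaryocyte-platelet-like and 11.8% of HSC-like cells had a Rab27b UMI, against 0.88% of the B cell-like and T and NK cell-like cells.

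**Figure D1:**
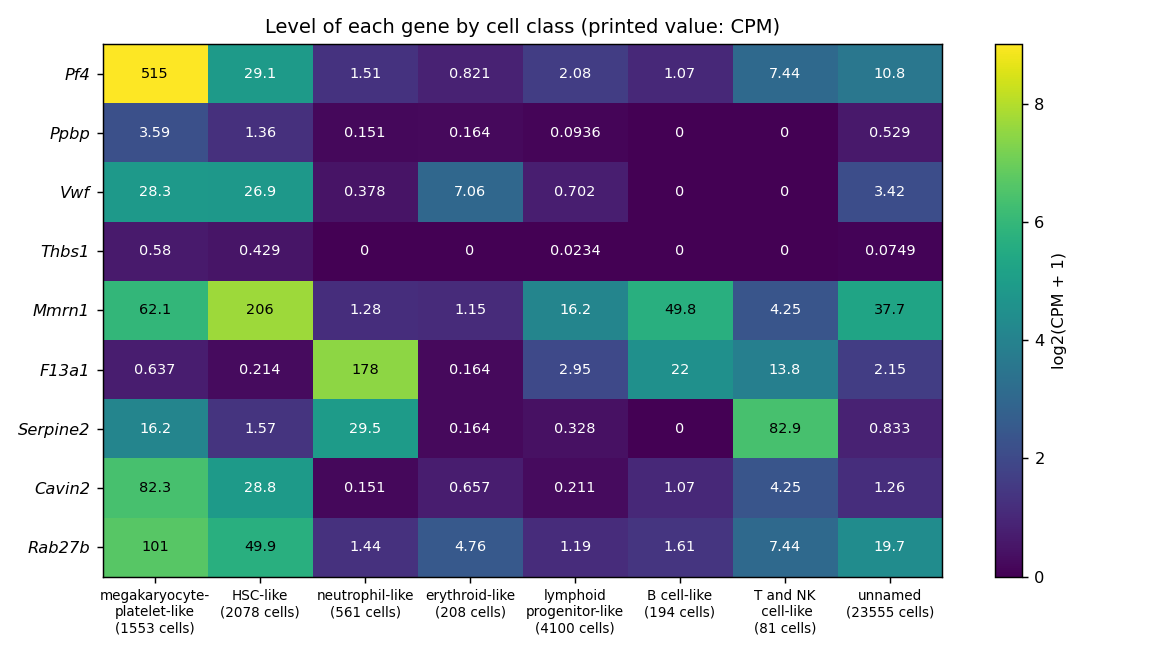
Level of each of the 9 genes (rows) in each cell class (columns), in CPM; the colour gives log2(CPM + 1) and the printed number gives CPM. Pf4 and Cavin2 are highest in megakaryocyte-platelet-like cells (515 and 82.3 CPM), Mmrn1 is highest in HSC-like cells (206 CPM), F13a1 in neutrophil-like cells (178 CPM), and Vwf is close to equal in the first 2 columns (28.3 and 26.9 CPM).

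Genes with the most similar pattern were found by Pearson's correlation of log2(CPM + 1) over the 18 clusters of at least 50 cells, as a description, since clusters share libraries and depth. The 9 genes themselves and genes under a mean of 10 CPM over the clusters were left out of this ranking, and correlations among the 9 genes are given after it. Nearest to Pf4 among the other genes were Rap1b (r = 0.863), Slc26a2 (0.844) and Fermt3 (0.840). Nearest to Vwf were Fbxo9 (0.932), Plxnc1 (0.918) and Nt5c3 (0.918), and nearest to Mmrn1 were Skil (0.940), Phactr1 (0.921) and Cers4 (0.915). Rab27b had Tek (0.958), Slc18a2 (0.958) and Prkg1 (0.955) beside it. F13a1 was most like Lta4h (0.945), Nin (0.875) and Pdia4 (0.873). The nearest genes of Serpine2 were Cpa3 (0.743), Zbtb16 (0.740) and Fam189b (0.718), and those of Cavin2 were Mob1b (0.731), Rap1b (0.729) and Dpf2 (0.724). For Ppbp (Nt5c3, 0.821) and Thbs1 (Rab11a, 0.728) the low counts leave the ranking weak. Among the 9 genes Pf4 had r = 0.848 with Rab27b, 0.833 with Cavin2 and 0.761 with Vwf. Rab27b had 0.810 with Vwf and 0.733 with Cavin2. F13a1 was negatively correlated with each of the others except Serpine2 (0.455), from -0.306 with Cavin2 to -0.671 with Vwf. Ppbp had 0.858 with Pf4 and 0.867 with Thbs1, and Thbs1 had 0.793 with Pf4 and 0.747 with Vwf. The values of Ppbp and Thbs1 rest on 208 and 34 UMIs in all and are as weak as their ranking.

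Between the gates, over all cells, Pf4 was at 58.8 CPM in the tdTomato-positive tube and 23.8 CPM in the tdTomato-negative tube of mouse 1, and at 61.2 and 36.1 CPM in those of mouse 2. Both tdTomato-positive tubes lay above both tdTomato-negative tubes. The share of all genes for which this holds was not counted, so here and below such an order is a description only. Cavin2 was at 7.76 CPM in tdTomato-positive and 5.28 CPM in tdTomato-negative cells of mouse 1, and at 9.88 and 6.69 CPM in those of mouse 2, again without overlap. For Serpine2 the levels were 4.68 CPM (tdTomato-positive) and 2.51 CPM (tdTomato-negative) in mouse 1 and 3.50 and 2.84 CPM in mouse 2, without overlap. Rab27b was at 19.8 CPM in tdTomato-positive and 17.5 CPM in tdTomato-negative cells of mouse 1, and at 29.1 and 24.9 CPM in those of mouse 2. For Rab27b the mice differed more than the gates, so that the groups overlap and the difference is seen only within each mouse. Vwf was at 5.74 CPM (tdTomato-positive) and 4.34 CPM (tdTomato-negative) in mouse 1 and at 7.06 and 5.76 CPM in mouse 2. The tdTomato-positive tube was the higher one for Vwf in each mouse, while the positive tube of mouse 1 and the negative tube of mouse 2 were nearly equal. F13a1 was at 24.4 CPM in tdTomato-positive and 8.79 CPM in tdTomato-negative cells of mouse 1, and at 7.41 and 5.34 CPM in those of mouse 2. The F13a1 difference was thus mostly that of mouse 1. Mmrn1 was at 41.0 CPM (tdTomato-positive) and 40.9 CPM (tdTomato-negative) in mouse 1 and at 45.3 and 40.5 CPM in mouse 2. Ppbp was at 0.745 CPM (tdTomato-positive) and 0.509 CPM (tdTomato-negative) in mouse 1 and at 0.574 and 0.783 CPM in mouse 2, in opposite directions. Thbs1, at 2 and 4 UMIs in the tdTomato-positive tubes and 15 and 13 in the tdTomato-negative tubes, gave no usable value.

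**Figure D2:**
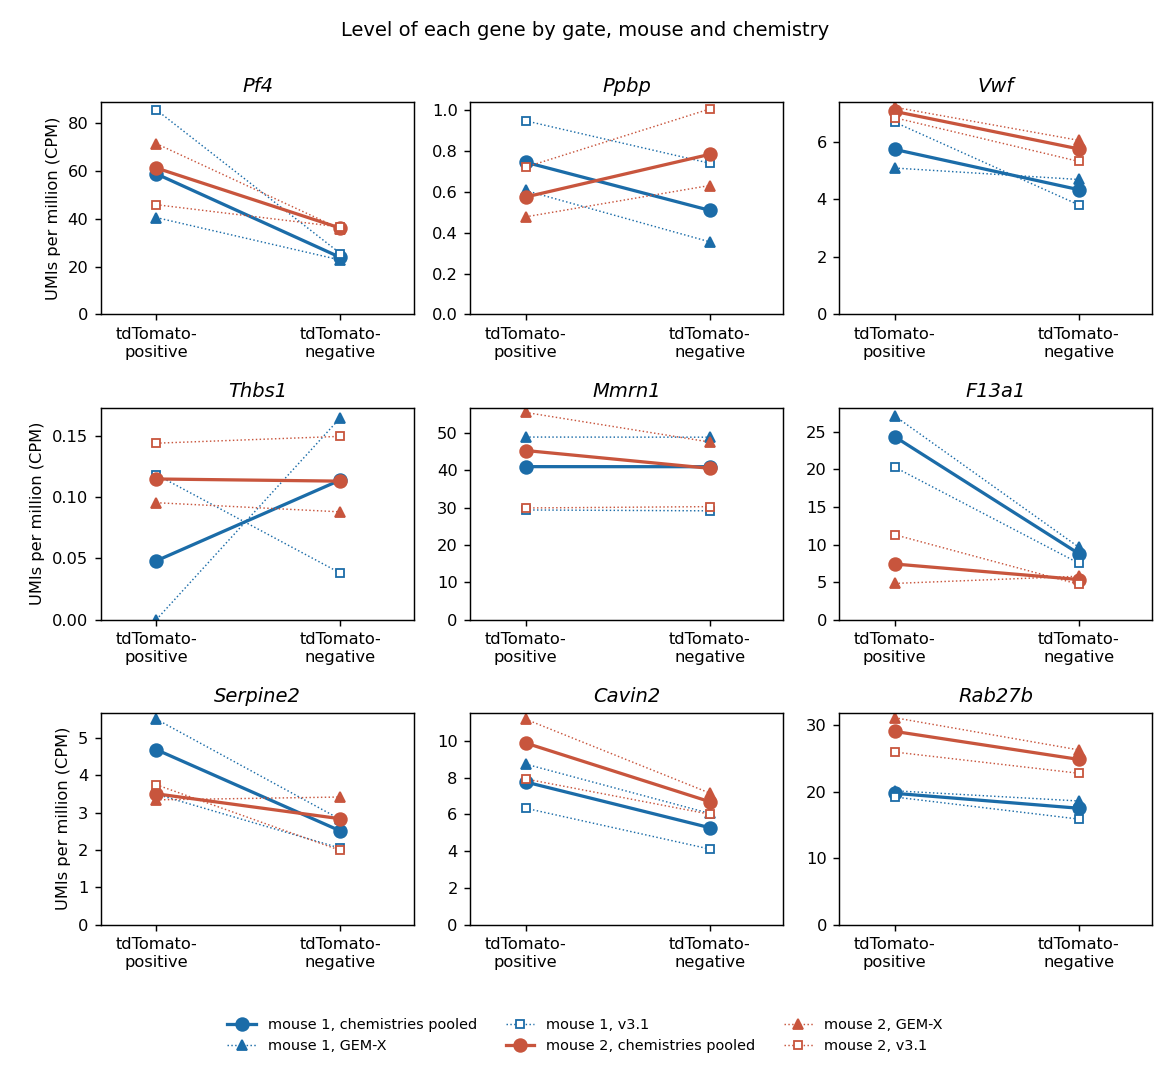
Level of each gene (CPM) in tdTomato-positive cells, left, and tdTomato-negative cells, right, of mouse 1 (blue) and mouse 2 (red); filled circles pool both chemistries, triangles are GEM-X and open squares v3.1, and lines join tubes of the same mouse. Cavin2, Pf4, Vwf and Rab27b are higher in tdTomato-positive cells in both mice with each chemistry, whereas F13a1 and Serpine2 are not in mouse 2 with GEM-X.

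The gates were compared with edgeR's quasi-likelihood test with the mouse as a block and Benjamini-Hochberg adjustment over all genes tested, where a positive log2 fold change means a higher level in tdTomato-positive cells. Of 16586 genes tested, 57 passed an adjusted p of 0.05, a background of 0.344%, of which 0.241% were higher and 0.102% lower. Of the 9 genes 8 had enough counts to be tested, and 3 passed, all higher in tdTomato-positive cells. Cavin2 had a log2 fold change of 0.57 ± 0.08 (SE, adjusted p = 7.92e-06), and its log2 ratios in mouse 1 and mouse 2 were 0.56 and 0.56. Serpine2 had 0.64 ± 0.13 (adjusted p = 0.021), with 0.90 and 0.30 in the mice. Rab27b had 0.21 ± 0.05 (adjusted p = 0.0272), with 0.17 and 0.23 in the mice. Vwf, at 0.36 ± 0.09, missed the threshold (adjusted p = 0.0752) and passed without robust estimation (adjusted p = 0.0385), with limma-voom (adjusted p = 0.0407) or without the filter on low counts (adjusted p = 0.0340). It did not pass with RLE size factors (adjusted p = 0.136), without predicted doublets (adjusted p = 0.404) or with DESeq2 (adjusted p = 0.9999). The median log2 fold change of the 8 tested genes was 0.46, against 0.0017 over all genes tested. The genes were chosen with earlier results of these data known, so these medians are a description only.

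Pf4 had a log2 fold change of 1.04 ± 0.26 and F13a1 of 1.12 ± 0.45, and neither passed with the robust estimate of the spread (adjusted p = 0.961 and 0.99). Both passed without robust estimation (adjusted p = 5.9e-21 for Pf4 and 1.12e-12 for F13a1), so their calls rest on how the spread between 2 mice is estimated. The log2 ratios of Pf4 were 1.30 in mouse 1 and 0.76 in mouse 2, and those of F13a1 were 1.47 and 0.47. Mmrn1 (0.09 ± 0.04, adjusted p = 0.757) and Ppbp (0.08 ± 0.27, adjusted p = 0.999) did not pass. None of the calls of Cavin2, Serpine2 and Rab27b held with DESeq2 or without the mouse block. A fit that left out 1 tube also had no mouse block, so it cannot show dependence on a single tube. By DESeq2 5 of all genes passed.

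The shares of the cell classes also differed between the tubes. Megakaryocyte-platelet-like cells made up 4.40% (exact interval 3.77 to 5.09%) of tdTomato-positive and 3.90% (3.57 to 4.26%) of tdTomato-negative cells of mouse 1, and 6.74% (5.97 to 7.57%) and 5.20% (4.81 to 5.61%) of those of mouse 2. The share was higher in the tdTomato-positive tube of each mouse. The summed level of the 14 megakaryocyte and platelet markers was 257 CPM in tdTomato-positive and 254 CPM in tdTomato-negative cells of mouse 1, and 337 and 311 CPM in mouse 2. With the megakaryocyte-platelet-like cells left out, the log2 fold changes were 0.30 for Cavin2, 0.39 for Serpine2, 0.057 for Rab27b and -0.037 for Pf4 (adjusted p = 0.999 for each, edgeR), each smaller than over all cells and none past the test. Neutrophil-like cells made up 4.19% of tdTomato-positive and 1.85% of tdTomato-negative cells of mouse 1, and 1.20% and 1.03% of those of mouse 2. The 11 markers of granulocyte and monocyte progenitors summed to 3284 CPM in tdTomato-positive and 1934 CPM in tdTomato-negative cells of mouse 1, and to 1463 and 1464 CPM in mouse 2, and their part in the F13a1 values was not tested. Without the neutrophil-like, erythroid-like, B cell-like and T and NK cell-like cells the log2 fold change of F13a1 was -0.036, and that of Vwf was 0.41 and passed (adjusted p = 8.13e-04, edgeR). Within neutrophil-like cells of mouse 1 F13a1 was at 235 CPM (tdTomato-positive) and 146 CPM (tdTomato-negative), and in mouse 2 at 200 and 156 CPM. Serpine2, in the same order, was at 27.3 and 19.6 CPM in mouse 1 and at 33.2 and 52.0 CPM in mouse 2, in opposite directions. The tdTomato-positive tube of mouse 2 held 47 such cells, and the gates were not tested in this class.

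Within megakaryocyte-platelet-like cells the tubes held 170 tdTomato-positive and 474 tdTomato-negative cells of mouse 1, and 265 and 644 of mouse 2. Serpine2 was at 23.5 CPM in tdTomato-positive and 15.9 CPM in tdTomato-negative cells of mouse 1, and at 23.8 and 11.1 CPM in mouse 2. Vwf was at 46.0 CPM (tdTomato-positive) and 22.6 CPM (tdTomato-negative) in mouse 1 and at 31.4 and 26.4 CPM in mouse 2. Rab27b was at 126 CPM (tdTomato-positive) and 94.6 CPM (tdTomato-negative) in mouse 1 and at 113 and 92.7 CPM in mouse 2. For each of these genes both tdTomato-positive tubes lay above both tdTomato-negative tubes. Cavin2 was at 113 CPM (tdTomato-positive) and 73.8 CPM (tdTomato-negative) in mouse 1 and at 86.3 and 78.3 CPM in mouse 2. Pf4 was at 1030.4 CPM (tdTomato-positive) and 378 CPM (tdTomato-negative) in mouse 1 and at 632 and 421 CPM in mouse 2. Neither Cavin2 nor Pf4 overlapped between the gates, and for both the difference was larger in mouse 1. The share of all genes without such overlap in these cells was not counted. Mmrn1 was at 68.6 CPM (tdTomato-positive) and 64.6 CPM (tdTomato-negative) in mouse 1 and at 65.3 and 56.7 CPM in mouse 2.

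In these cells 48 of 11489 genes passed the test (0.418%, of which 0.366% were higher and 0.0522% lower), and 5 of the 7 tested members passed, all higher in tdTomato-positive cells. The log2 fold changes were 0.85 ± 0.20 for Serpine2 (adjusted p = 0.00972), 0.62 ± 0.15 for Vwf (0.00982), 0.37 ± 0.09 for Cavin2 (0.0134) and 0.35 ± 0.08 for Rab27b (0.00691). Pf4 had 1.02 ± 0.04 (adjusted p = 6.98e-118), a standard error that comes from a spread pooled over genes and is far smaller than the gap between its log2 ratios of 1.45 in mouse 1 and 0.59 in mouse 2. That call was lost with Leiden clustering at resolution 0.5 (adjusted p = 0.895), without the filter on low counts (adjusted p = 0.961) and with v3.1 alone (adjusted p = 0.968), while the fold change stayed near 1. Mmrn1 (0.16 ± 0.11, adjusted p = 0.884) and Ppbp (-0.04 ± 0.44, adjusted p = 0.995) did not pass. With either chemistry alone none of Serpine2, Vwf, Cavin2 and Rab27b passed. At matched depth Cavin2 was found in 13.8% of tdTomato-positive and 13.9% of tdTomato-negative cells of this class in mouse 1. In mouse 2 these shares were 13.6% and 14.1%, so Cavin2 was not found in more of the tdTomato-positive cells. For Serpine2 they were 2.99% and 3.22% in mouse 1 and 3.50% and 2.04% in mouse 2. For Vwf they were 6.59% and 4.72%, then 5.06% and 4.71%, and for Rab27b 23.4% and 20.6%, then 23.0% and 18.2%. Fits that left out 1 tube had no mouse block and 1 tube in a group, so no call is read from them. No gene of the 11489 passed with DESeq2 or without the mouse block, with 39 and 380 at an unadjusted p under 0.05. The 14 megakaryocyte and platelet markers moved in the same direction, with a sum of 874 CPM in tdTomato-positive and 734 CPM in tdTomato-negative cells of mouse 1 and of 824 and 734 CPM in mouse 2, and 8 of the 14 were higher and 0 lower in both mice, with 2 of them at 0 in some tube. Median depth was 11659 UMIs in tdTomato-positive and 11167 in tdTomato-negative cells of mouse 1, and 9910 and 10038 in mouse 2. The 14 HSC markers summed to 1814 CPM in tdTomato-positive and 1992 CPM in tdTomato-negative cells of mouse 1 and to 1982 and 2023 CPM in mouse 2, with 2 higher and 5 lower in both mice. The 8 mast cell and basophil markers summed to 105 CPM in tdTomato-positive and 102 CPM in tdTomato-negative cells of mouse 1 and to 118 and 92.9 CPM in mouse 2, with 2 higher and 0 lower in both mice. The part of these markers in the result was not tested.

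Within HSC-like cells none of the 5 tested members passed. Vwf was at 33.0 CPM in tdTomato-positive and 27.2 CPM in tdTomato-negative cells of mouse 1, and at 30.4 and 23.4 CPM in mouse 2, a log2 fold change of 0.33 ± 0.17 (adjusted p = 0.85, edgeR). Cavin2 was at 36.1 CPM (tdTomato-positive) and 31.0 CPM (tdTomato-negative) in mouse 1 and at 35.5 and 21.8 CPM in mouse 2 (0.45 ± 0.17, adjusted p = 0.733, edgeR). Both genes were at higher levels in the tdTomato-positive tube of each mouse, but with v3.1 alone the log2 fold change of Cavin2 was -0.39. The HSC-like class itself depended on the clustering, with 5.72 to 6.71% of a tube's cells at Leiden resolution 1, which is used here, 12.5 to 17.2% at 0.5 and 10.7 to 14.7% at 2. Pf4 was at 28.6 CPM (tdTomato-positive) and 28.7 CPM (tdTomato-negative) in mouse 1 and at 34.9 and 27.7 CPM in mouse 2 (0.18 ± 0.17, adjusted p = 0.945, edgeR). Mmrn1 (0.05 ± 0.07, adjusted p = 0.971) and Rab27b (-0.04 ± 0.13, adjusted p = 0.991) had small fold changes by edgeR. Of 11914 genes tested in HSC-like cells 0 passed by edgeR (0%) and 0 by DESeq2, with 703 and 4 at an unadjusted p under 0.05. Whether the gate differences differ between the classes was not tested.

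**Figure D3:**
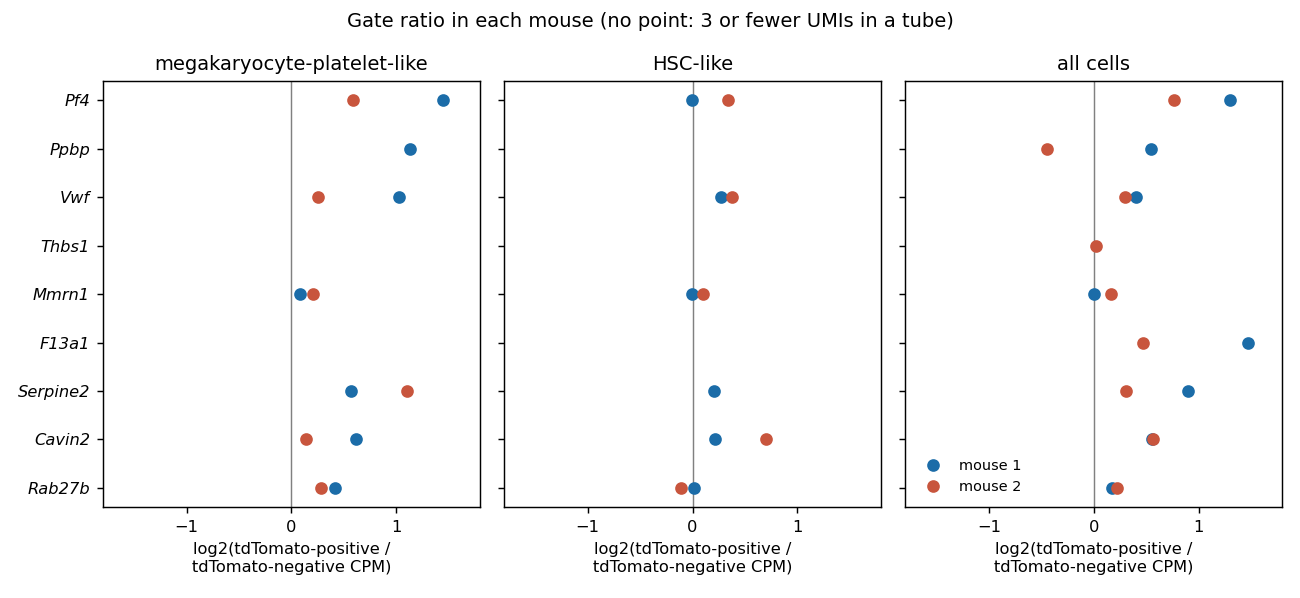
Log2 ratio of the CPM in tdTomato-positive cells to that in tdTomato-negative cells of the same mouse (blue, mouse 1; red, mouse 2) for each gene in megakaryocyte-platelet-like cells, HSC-like cells and all cells; genes with 3 or fewer UMIs in a tube have no point. In megakaryocyte-platelet-like cells Pf4, Vwf, Serpine2, Cavin2 and Rab27b lie to the right of 0 in both mice, and in HSC-like cells Vwf and Cavin2 lie to the right in both, though neither passed the test and Cavin2 turned to -0.39 with v3.1 alone.

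The tubes with more Pf4 did not hold clearly more cells with Pf4. At matched depth 3.79% (exact interval 3.20 to 4.45%) of tdTomato-positive and 3.61% (3.28 to 3.97%) of tdTomato-negative cells of mouse 1 had a Pf4 UMI, and 4.61% (3.96 to 5.33%) and 4.82% (4.44 to 5.22%) of those of mouse 2. The intervals of the gates overlapped in each mouse. Before thinning these shares were 7.99% and 8.37% in mouse 1 and 10.2% and 10.1% in mouse 2. Cells with 10 or more Pf4 UMIs were 22 of 3867 tdTomato-positive and 41 of 12144 tdTomato-negative cells in mouse 1, and 15 of 3933 and 44 of 12386 in mouse 2. These few cells held 82.2% of the Pf4 UMIs of the tdTomato-positive tube and 55.4% of the tdTomato-negative tube in mouse 1, and 72.7% and 57.2% in mouse 2. Of the 122 such cells 118 were megakaryocyte-platelet-like. At 100 or more Pf4 UMIs there were 6 tdTomato-positive and 3 tdTomato-negative cells in mouse 1, and 6 and 7 in mouse 2. The highest single cells held 434 (tdTomato-positive) and 314 (tdTomato-negative) Pf4 UMIs in mouse 1, and 348 and 232 in mouse 2. Most of the Pf4 UMIs of each tube were thus held by these few cells.

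**Figure D4:**
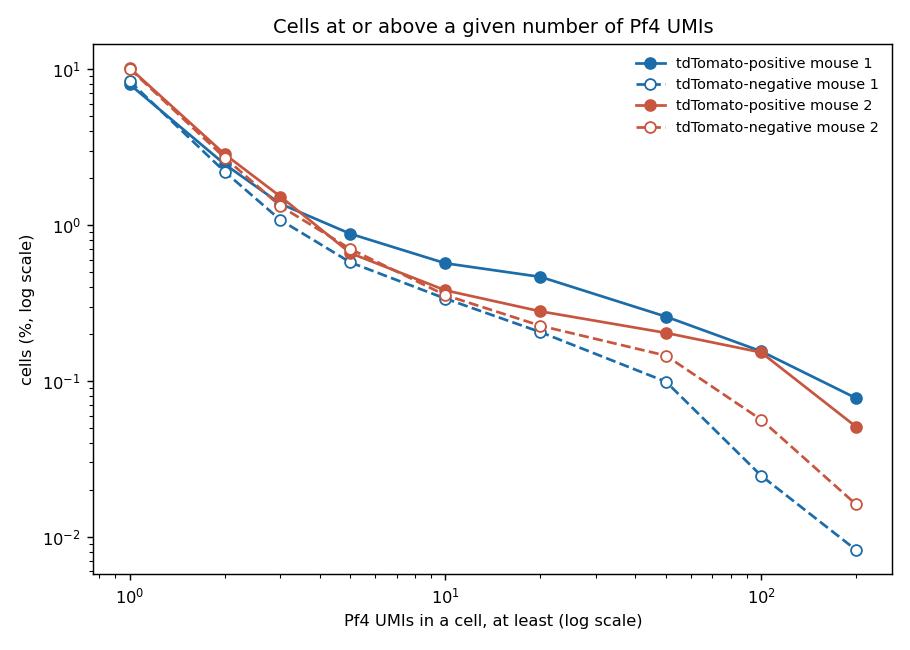
Share of cells (percent, log scale) with at least the number of Pf4 UMIs on the horizontal axis (log scale), for tdTomato-positive cells (filled circles) and tdTomato-negative cells (open circles) of mouse 1 (blue) and mouse 2 (red). The curves lie together at 1 UMI, where they run from 7.99% to 10.2%, and those of the tdTomato-positive tubes lie above those of the tdTomato-negative tubes from 10 UMIs on.

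Other genes were concentrated in single cells to different degrees. Of 75 cells with 10 or more F13a1 UMIs 74 were neutrophil-like, and of 22 cells with 10 or more Cavin2 UMIs 21 were megakaryocyte-platelet-like. All 21 such cells of Rab27b, all 8 of Vwf and 7 of 9 of Serpine2 were megakaryocyte-platelet-like. Mmrn1 reached 10 UMIs in 4 cells only and no more than 12 in any.

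At matched depth the share of cells with a Vwf UMI was 1.55% of tdTomato-positive and 1.35% of tdTomato-negative cells in mouse 1, and 2.12% and 1.74% in mouse 2. Rab27b was found in 5.07% of tdTomato-positive and 4.90% of tdTomato-negative cells in mouse 1, and in 7.55% and 6.60% in mouse 2. Cavin2 was found in 1.28% (tdTomato-positive) and 1.22% (tdTomato-negative) in mouse 1, and in 1.70% and 1.34% in mouse 2. The exact intervals of the gates overlapped for each of these genes in each mouse, and for Rab27b the mice differed by more than the gates. In mouse 1 the order of the gates turned with the setting: Vwf was found in 1.94% of tdTomato-positive and 2.10% of tdTomato-negative cells at 5000 UMIs a cell and in 1.20% and 1.44% with GEM-X alone. Rab27b was found in 12.9% of tdTomato-positive and 13.1% of tdTomato-negative cells of that mouse without thinning and in 5.08% and 5.23% with GEM-X alone. Cavin2 was found there in 0.721% of tdTomato-positive and 1.04% of tdTomato-negative cells with v3.1 alone. No order of the gates is read from these shares in mouse 1. Mmrn1 was found in 11.7% (tdTomato-positive) and 11.9% (tdTomato-negative) in mouse 1, and in 12.4% and 11.8% in mouse 2.

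Co-expression was counted in 31321 cells thinned to 3000 UMIs, as the number of cells with both genes over the number expected if they were independent. Pf4 and Cavin2 were found together in 130 cells, against 17.5 expected, a ratio of 7.42. Vwf and Cavin2 shared 53 cells (7.90), and Serpine2 and Cavin2 shared 20 (8.41), the highest ratio among pairs with at least 20 shared cells. Pf4 shared 42 cells with Serpine2 (5.57), 79 with Vwf (3.71), 194 with Rab27b (2.49) and 232 with Mmrn1 (1.48). Vwf shared 139 cells with Mmrn1 (2.32) and 64 with Rab27b (2.15). Mmrn1 shared 131 cells with Cavin2 (2.65) and 377 with Rab27b (1.72). Cavin2 and Rab27b shared 103 cells (4.20), and Serpine2 and Rab27b shared 29 (2.75). Mmrn1 and Serpine2 shared 20 cells, a ratio of 0.94 and the lowest of those pairs. F13a1 shared 2 cells with Pf4 (0.17), 9 with Mmrn1 (0.27), 3 with Rab27b (0.18) and 0 with Vwf, where 4.45 were expected. With Serpine2 it shared 14 cells (8.88), against 1.58 expected, and the ratio was above 1 in each of the 4 tubes. A single cell had a UMI of 4 or more members in 53 cases, of which 45 were megakaryocyte-platelet-like, 6 HSC-like and 2 unnamed.

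Most of the ratios were lower inside a class. In 1527 megakaryocyte-platelet-like cells Pf4 and Cavin2 shared 109 cells (2.07), Pf4 and Vwf 53 (2.82), Vwf and Cavin2 32 (3.02) and Pf4 and Mmrn1 73 (1.35). In 2027 HSC-like cells Pf4 and Mmrn1 shared 50 cells (0.77), fewer than the 65.3 expected. Vwf and Mmrn1 shared 67 (1.19) and Vwf and Cavin2 shared 20 (2.39) of the HSC-like cells. Thus Pf4 and Mmrn1 were found together above expectation in megakaryocyte-platelet-like cells and below it in HSC-like cells, a difference that was not tested.

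By gate, Pf4 and Vwf had a ratio of 4.49 in tdTomato-positive and 3.42 in tdTomato-negative cells. Vwf and Cavin2 had 9.25 in tdTomato-positive and 7.25 in tdTomato-negative cells, a difference that came from mouse 1 (13.5 and 7.74) and was not seen in mouse 2 (6.64 and 6.84). Pf4 and Mmrn1 had 1.70 in tdTomato-positive and 1.41 in tdTomato-negative cells. For Pf4 and Cavin2 the ratios were 7.44 in tdTomato-positive and 7.41 in tdTomato-negative cells, and for Vwf and Mmrn1 they were 2.16 and 2.37. The same pairs were thus high in both gates.

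**Figure D5:**
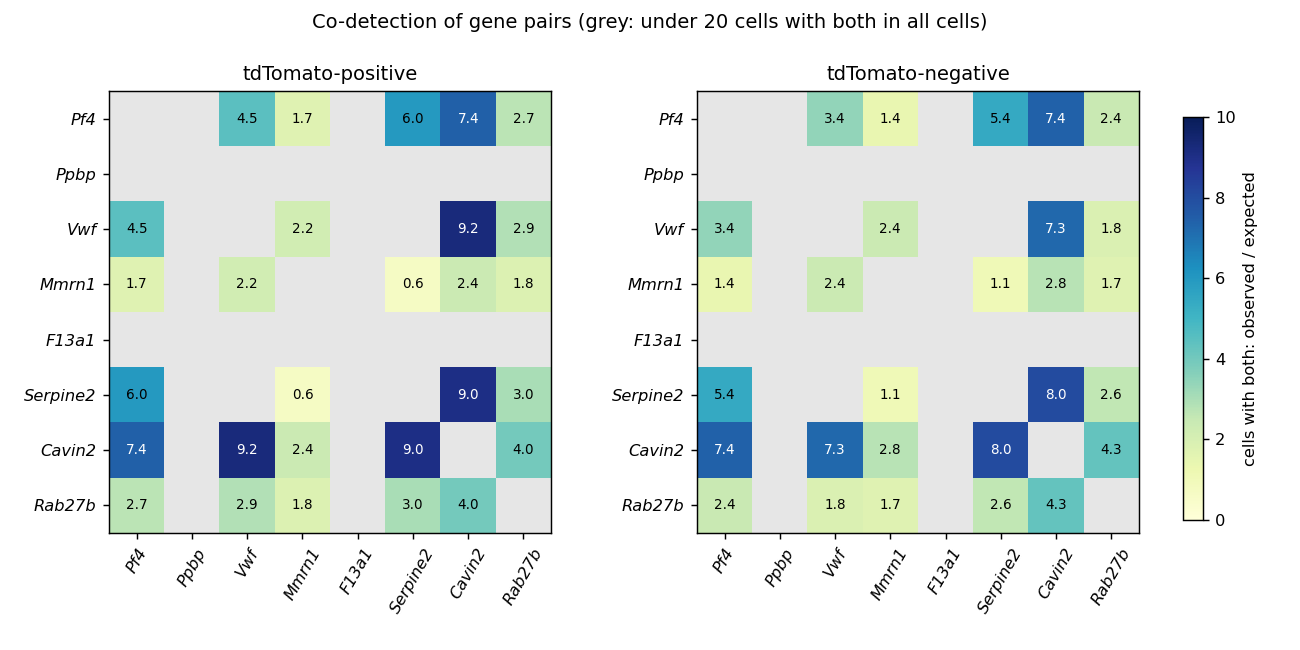
Number of cells with a UMI of both genes over the number expected if the genes were independent, for each pair, in tdTomato-positive cells, left, and tdTomato-negative cells, right, after thinning to 3000 UMIs per cell; pairs with fewer than 20 shared cells overall are grey. Pairs of Cavin2 with Vwf, Pf4 and Serpine2 are the darkest in both gates, and pairs with Mmrn1 are pale.

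Few other genes of the same pathways passed the test. Of 24 other genes of granule cargo 18 were tested over all cells and 2 passed, both higher in tdTomato-positive cells, with a median log2 fold change of 0.10. Over all genes tested, 0.344% passed and the median was 0.0017, which is the background of this list and the next ones. Apoe, which encodes apolipoprotein E, was at 76.6 CPM (tdTomato-positive) and 72.2 CPM (tdTomato-negative) in mouse 1 and at 116 and 102 CPM in mouse 2, a log2 fold change of 0.15 ± 0.03 (adjusted p = 0.00674, edgeR). Fn1, the fibronectin gene, passed at a low level of 224 UMIs in all (1.02, adjusted p = 0.0397, edgeR). Of 27 other genes of coagulation and fibrinolysis 16 were tested and 0 passed by edgeR, with 3 at an unadjusted p under 0.05 and a median of 0.09. Of 38 other genes of granule biogenesis, release and caveolae 37 were tested and 0 passed by edgeR, with 1 at an unadjusted p under 0.05 and a median of 0.01. In megakaryocyte-platelet-like and HSC-like cells no gene of these lists passed by edgeR, with 1 or 2 of each list at an unadjusted p under 0.05.

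The chemistries were compared over the 4 tubes that were divided between them, with the tube as a block and a positive log2 fold change for a higher level with GEM-X. Of 15218 genes tested 11467 passed (75.4%, of which 38.6% were higher and 36.8% lower with GEM-X), so a member that passes is no exception. Mmrn1 was at 47.5 to 55.5 CPM with GEM-X and 29.1 to 30.2 CPM with v3.1, a log2 fold change of 0.77 ± 0.03 (adjusted p = 2.45e-21, edgeR). Serpine2 (0.52 ± 0.12, adjusted p = 1.58e-04), Cavin2 (0.45 ± 0.07, adjusted p = 3.86e-07) and Rab27b (0.22 ± 0.04, adjusted p = 6.47e-06) were also higher with GEM-X. Ppbp was lower with GEM-X, at 0.355 to 0.631 CPM, against 0.720 to 1.005 CPM with v3.1 (-0.75 ± 0.22, adjusted p = 0.00221, edgeR). The chemistries did not pass the test for Pf4 (-0.15 ± 0.32, adjusted p = 0.718), Vwf (0.13 ± 0.08, adjusted p = 0.166) or F13a1 (0.20 ± 0.29, adjusted p = 0.582).

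The gate differences were also read within each chemistry. The log2 ratios of Pf4 were 0.83 in mouse 1 and 0.998 in mouse 2 with GEM-X, and 1.75 and 0.33 with v3.1, so the order of the mice turned between the chemistries. Those of F13a1 in mouse 2 were -0.26 with GEM-X and 1.27 with v3.1. With GEM-X Serpine2 was at 3.34 CPM in tdTomato-positive and 3.42 CPM in tdTomato-negative cells of mouse 2. Cavin2, Rab27b and Vwf were higher in tdTomato-positive cells of both mice with each chemistry. Over all cells Cavin2 and Pf4 passed with GEM-X alone (adjusted p = 6.03e-06 for Pf4, edgeR), and F13a1 passed with v3.1 alone (adjusted p = 5.03e-08, edgeR).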

How the data were processed

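The 9 genes and all gene lists were chosen with earlier results of these data known. The deposited matrices hold UMI counts per gene and cell barcode, made with Cell Ranger 8.0.1 for GEM-X and 7.1.0 for v3.1, per the file headers, while the submitters' processing notes name Cell Ranger 7.0.0 and mm10, so the version goes with the chemistry. Which matrix belongs to which chemistry was read from the matrix names and these versions. Mouse and gate of each hashtag come from a deposited text. The labels speak of a positive and a negative tube shared by the mice in one place and of 4 hashed samples in another, and here the hashtags are read as separating the mice.

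Barcodes with fewer than 1000 genes or over 10% mitochondrial UMIs were removed (20140 GEM-X and 16721 v3.1 kept, 371 and 1034 removed). A hashtag was called where its posterior exceeded 0.5 under a Gaussian mixture with 2 components, fitted to log10 UMIs in each chemistry (scikit-learn 1.9.0). Cells with no hashtag (63 and 13) or several (2091 and 2364) were left out. Doublets within a tube remain. Scrublet (scanpy 1.11.5) marked 0 cells at its own thresholds, so 0.15, set after the data were seen, was used as an alternative. It marked 3.26% of GEM-X and 3.83% of v3.1 cells with 1 hashtag, and 43.0% and 43.8% of the hashtag doublets.

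Clusters came from 2000 variable genes, 30 principal components, 30 nearest neighbours weighted by shared neighbours and Leiden at resolution 1 (leidenalg 0.10.2, 5 iterations), without the 9 genes and 132 genes called between the gates by edgeR without robust estimation. The neighbour weights were set after results of another weighting had been seen, so that the clusters could be rebuilt exactly. Under that weighting, whose counts are not given here, the call of Pf4 in megakaryocyte-platelet-like cells was not made. A cluster was named when 3 or more markers, and 66.7% of the ones detected at 1 CPM, were raised by 0.5 on the log2 scale. The rules of naming were set with the data known.

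For the gates, counts were summed per tube. For the chemistries, each tube gave a sum with GEM-X and one with v3.1. They were tested with edgeR 4.0.16 (R 4.3.3; TMM, filterByExpr, trended dispersions of at least 1e-04, robust glmQLFit, glmQLFTest), with Benjamini-Hochberg adjustment at 0.05 over all genes tested. Standard errors are the log2 fold change over the square root of F and rest on a spread pooled over genes, with 1 residual degree of freedom a gene in the gate fits. The pairing is by animal, since each mouse gave a positive and a negative tube. The difference between the mice in the positive tubes followed that in the negative tubes (Pearson r 0.838, Spearman rho 0.806 across 9368 genes, not independent of each other). DESeq2 1.42.0 and limma 3.58.1 (voom) were alternatives. The scripts were tested on simulated counts. Shares of cells and co-detection used cells thinned to 3000 UMIs, leaving out shallower ones.

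All 9 genes were named whatever their values. Of the other lists, up to 4 genes were named that passed, averaged 10 CPM or more and moved the same way in each mouse, and Fn1 was named after its values were seen. Selp is both a marker and a cargo gene. Coordinates are from GENCODE M21 (mm10). RefSeq promoter entries were found for 6 of the 9 genes. No column of per-sample values was left unused.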

Additional observations from a re-analysis of the deposited data

Results flagged for a closer look

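Barcodes that carried several hashtags were left out of every comparison above. In 4455 such barcodes Mmrn1 was at 42.8 CPM from 3720 UMIs (exact Poisson interval 41.4 to 44.2 CPM, counting error only), above the higher of the 2 tdTomato-negative tubes, at 40.9 CPM, and inside the range of the tdTomato-positive tubes, at 41.0 and 45.3 CPM. No cause was tested.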

How the results depend on the processing

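Over all cells 57 genes passed between the gates. The count was 5 with DESeq2, 5 with GEM-X alone, 30 with RLE size factors, 32 with v3.1 alone, 132 without robust estimation, 159 with limma-voom and 143 without a filter on low counts. It was 15 without Scrublet doublets, 112 without the committed lineage-like cells and 11 without megakaryocyte-platelet-like cells. It was 0 without the replicate block, which pairs the tubes of a mouse. Gate fits that left out a tube also dropped this block and left 1 tube in a group, so their counts are not given. In megakaryocyte-platelet-like cells 48 passed, against 0 with DESeq2, 0 with v3.1 alone, 0 without the replicate block, 20 at Leiden resolution 0.5, 19 with an unweighted neighbour graph (chosen after seeing the data) and 1 to 31 when a tube was left out. In HSC-like cells 0 passed by edgeR (703 unadjusted), against 6 with GEM-X alone and 4 at resolution 0.5. The unweighted graph left no HSC-like cluster and so gave no value. Between the chemistries 9399 genes passed without the replicate block, against 11467 with it.

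Directions turned as follows on the log2 scale, where gate fits with a tube left out did not pair the tubes by mouse. Over all cells Pf4 was -0.037 without megakaryocyte-platelet-like cells, F13a1 -0.036 without the committed lineage-like cells, and Ppbp -0.020 with v3.1 alone and -0.20 to 0.37 when a tube was left out; Rab27b then ranged -0.054 to 0.46. In HSC-like cells Pf4 was -0.10 and Cavin2 -0.39 with v3.1 alone, Rab27b was 0.23 with GEM-X alone, 0.018 at resolution 0.5 and -0.12 to 0.035 when a tube was left out, and Mmrn1 then ranged -0.049 to 0.15. In megakaryocyte-platelet-like cells Ppbp was 0.15 at resolution 0.5, 0.052 with the unweighted graph and -1.73 to 0.92 when a tube was left out. Between the chemistries F13a1 was -0.0076 with DESeq2, and Pf4 ranged -0.36 to 0.15 when a tube was left out. The causes were not tested. Of the other fold changes of members, 247 kept their direction and side of the threshold, 71 were no longer past it and 12 came past it. These tallies also hold the gate fits with a tube left out, from which no call is read. The shares of megakaryocyte-platelet-like cells moved by less than the spread between the mice in each of 12 values at other resolutions or with the unweighted graph. HSC-like cells did not keep their share (5.72 to 6.71% over the tubes at resolution 1, 12.5 to 17.2% at 0.5, 10.7 to 14.7% at 2), nor did lymphoid progenitor-like cells (6.86 to 18.1% at resolution 1, 2.06 to 7.75% at 2). Of the shares of cells with a UMI of a member, 101 moved by more than the spread between the mice, most of them at another depth, and 79 did not. With 208 and 34 UMIs in all, Ppbp and Thbs1 are limited by depth.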
